A study of Mus musculus with 8 samples.

Results

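The genes described here build and supply the lysosome: hydrolases other than cathepsins and glycosaminoglycan-degrading enzymes, proteins of the lysosomal membrane, lipid exporters, and the receptors and enzymes that sort new hydrolases. The 39 genes were taken by symbol from a table of 26848 genes, and all 39 were found, each in 1 row. The rule names genes by their function and uses no measured value, but the genes were chosen with earlier results of these data known. RNA was measured in RAW264.7 cells, a mouse macrophage-like tumour line, cultured on polyetheretherketone (PEEK), a polymer of bone implants. The surface was either nano/microstructured (4 libraries) or smooth (4 libraries), and nothing else differed between the groups in the labels. All libraries came from 1 cell line with no bone, host cells or implant around it. The labels name biological replicates but no separate cultures, so each p-value reflects the variation among these libraries only, part of which may be technical. In both groups library 1 carries no replicate number in the labels and libraries 2 to 4 follow the numbered replicates in order.

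Lysosomes are acidic organelles in which hydrolases break down glycans, lipids, proteins and nucleic acids, and macrophages use them to digest what they take up. Most soluble hydrolases receive a mannose 6-phosphate tag in the Golgi, made by a phosphotransferase whose catalytic and accessory subunits come from Gnptab and Gnptg. The receptors M6pr and Igf2r bind the tag and carry the enzymes towards the lysosome, and sortilin (Sort1) carries other cargo, progranulin included. Many genes of the pathway have a promoter element with the core CACGTG, known as the CLEAR element, to which the transcription factors TFEB, TFE3 and MITF bind.

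The upstream sequences of 4 members are shown because the pathway is known for this element, and they are those of 3 members that fell (Igf2r, Gaa and Man2b1) and of Lamp1, which missed the threshold. RefSeq promoter windows (GRCm38.p6, 250 bases before to 50 bases after a gene's start) were matched by symbol for 34 of the 39 members. CACGTG, which reads the same on both strands, lay in a window of 9 of the 34 (26.5%), against 2187 of 27025 genes with such a window (8.09%). The 9 were Sumf1, Cln3, Lamp1, Cd164, Gaa, Arsa, Igf2r, Gnptg and Gla. Of the 58 other lysosome genes described below, 43 had a window, and 14 of these (32.6%) held CACGTG. The longer palindrome TCACGTGA, which contains CACGTG, lay in windows of 6 of the 34, against 304 of 27025 genes. Each stretch below holds 100 bases, written 5′ to 3′ on the gene's strand, and capitals mark CACGTG. The stretches are chr17:12769707-12769806 (minus strand) for Igf2r, chr11:119267783-119267882 (plus strand) for Gaa, chr8:13159061-13159160 (plus strand) for Lamp1 and chr8:85083169-85083268 (plus strand) for Man2b1. All end 1 base before the RefSeq start except that of Gaa, which covers bases 180 to 81 before it and so takes in the match that begins 140 bases before that start. The RefSeq starts are not always those of the gene coordinates given below, and they differ for Gaa and Igf2r.
Igf2r: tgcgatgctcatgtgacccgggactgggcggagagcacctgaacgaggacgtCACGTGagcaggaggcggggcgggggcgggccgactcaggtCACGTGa
Gaa: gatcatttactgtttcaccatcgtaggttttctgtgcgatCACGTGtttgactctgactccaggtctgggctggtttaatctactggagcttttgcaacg
Lamp1: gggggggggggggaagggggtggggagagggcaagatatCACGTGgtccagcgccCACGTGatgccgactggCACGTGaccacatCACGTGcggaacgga
Man2b1: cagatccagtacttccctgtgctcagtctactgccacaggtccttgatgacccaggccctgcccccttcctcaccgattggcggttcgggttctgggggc
The Lamp1 stretch holds 4 matches, that of Igf2r 2, that of Gaa 1 and that of Man2b1 0. Of the 5 members that fell on the structured surface and have a window, Igf2r and Gaa hold the motif, while Grn, Man2b1 and Psap hold none in theirs. The sequences of Grn and Psap are not shown. A match of letters is not a measured binding site.

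Library totals ran from 64660379 to 69885018 count units on the structured surface and from 64479829 to 73098735 on the smooth one, and all 39 members passed the filter on low counts. Macrophage markers (10 of 10 measured) summed to 5899 to 6015 CPM (counts scaled to a common library size) in structured libraries and 5480 to 5964 CPM in smooth libraries. Csf1r and Lyz2 were high in all libraries, while Adgre1, at 9.69 to 14.2 CPM, and Fcgr3, at 2.25 to 3.52 CPM, were low. Neutrophil markers (11 of 12 listed were measured) summed to 14.8, 52.1, 51.1 and 55.2 CPM in structured 1 to 4, against 0.438 to 1.92 CPM in smooth libraries, where 7 of the 11 were at 0 in every library. Mpo and Elane, which define immature neutrophils, stayed at or under 0.0590 CPM in all libraries. Hepatocyte markers (14 of 15 measured) summed to 122 to 448 CPM in structured libraries and 60.7 to 305 CPM in smooth libraries, and skeletal muscle markers (12 of 12) to 39.1 to 45.9 CPM in structured and 41.5 to 85.1 CPM in smooth libraries. Most of the muscle sum came from Eno3 and Tnni2, except in smooth 1. There they had 23.0 and 15.7 CPM, in that order, of a sum of 85.1 CPM. Of the 12 muscle markers 10 had a negative log2 fold change, 6 had groups that did not overlap and 3 fell by the test used below, with a median of -2.69. Of the neutrophil markers 5 were tested, and all 5 rose by the same test with groups that did not overlap (median log2 fold change 9.24). Of the 14 hepatocyte markers 13 had a positive log2 fold change (median 0.76), but 0 passed and the groups overlapped in each. Neutrophil markers were thus higher in the structured libraries, but unevenly, with structured 1 far below the others. Most muscle markers were lower there, though the muscle sums of the groups overlapped. The labels name only a macrophage-like line, and the source of the neutrophil, hepatocyte and muscle transcripts is not known. These markers do not show that such cells were present or that the cultured cells responded to the surface. The part of the neutrophil and muscle markers in the differences of the lysosomal genes was not tested. In RNA from whole cultures, fewer cells of a type and less RNA per cell cannot be told apart.

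Of the 39 lysosomal genes, 6 fell on the structured surface and 0 rose. They were Grn, Npc1, Man2b1, Gaa, Psap and Igf2r, with log2 fold changes (structured minus smooth) of -0.47 to -0.20. The mean level of Grn fell by 27.7% and that of Igf2r fell by 13.2%, the ends of this range. The test was edgeR's quasi-likelihood test on the deposited counts, with Benjamini-Hochberg adjustment over all 16006 genes tested and a threshold of 0.05. Over all genes tested, 440 (2.75%) fell and 161 (1.01%) rose by the same rule, while the 6 are 15.4% of the members. Of all calls 73.2% were lower, and 55.5% were after correction for GC content and length. The genes tested were not matched to the members in abundance, and genes with few counts are harder to call. With a stricter filter (minimum count 40), 500 of 13089 genes fell, and 6 members did. The count of members that fell was 2 without structured 4, where 0.407% of all genes tested fell. It was 3 without smooth 3 and 3 without structured 2, where 0.742% and 0.602% of all genes fell, in that order. At an unadjusted p under 0.05, 13 members were lower (33.3%) and 1 was higher, against 10.6% lower and 8.14% higher of all genes.

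The CPM values of the 4 structured libraries all lay below those of the 4 smooth libraries for 9 members (23.1%), and all lay above them for 0. Among all genes tested the shares were 7.03% below and 5.19% above. The 9 were the 6 genes that fell and Lamp1, Lipa and Gnptab. The log2 fold change was negative in 28 members (71.8%) and positive in 11, with a median of -0.05, against 48.8% negative and a median of 0.01 over all genes tested. The 33 members that missed the threshold ranged from -0.26 to 0.10, with a median of -0.03.

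**Figure D1:**
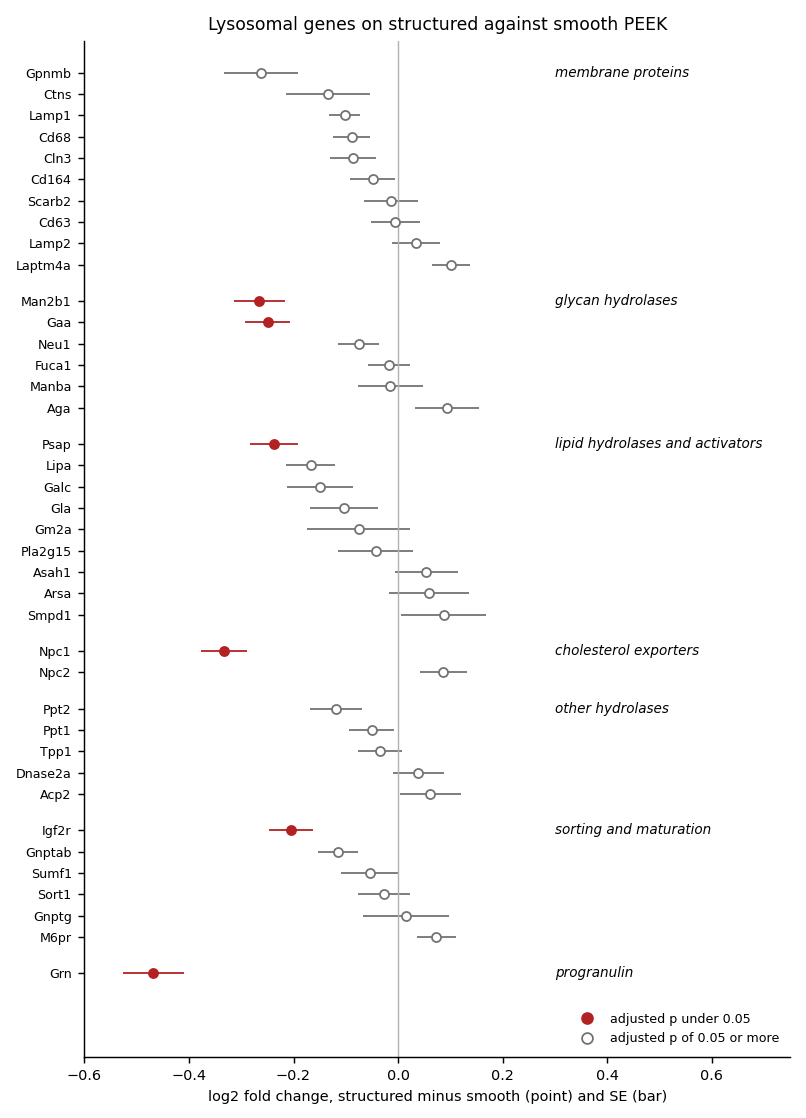
Log2 fold change of each of the 39 genes, structured minus smooth (point), with its SE (bar), by role group. Filled points have an adjusted p under 0.05 in edgeR's test over all genes: 6 genes from -0.47 (Grn) to -0.20 (Igf2r), all left of 0.

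Progranulin fell furthest. It is a secreted glycoprotein that is delivered to lysosomes, where it is cut into granulins. Grn (ENSMUSG00000034708, chr11:102430315-102436809, plus strand) had 405, 433, 485.5 and 424 CPM in structured 1 to 4, against 554, 615, 623 and 626 CPM in smooth 1 to 4. The highest structured library lay below the lowest smooth library, so the groups did not overlap. The means were 437 ± 34.5 CPM on structured and 604.5 ± 34.0 CPM on smooth PEEK (SD, n = 4 each), and the level fell by 27.7% (log2 fold change -0.47 ± 0.06 SE, edgeR adjusted p = 0.00434). Structured 1, which had the lowest sum of neutrophil markers among the structured libraries, also had the lowest Grn. That sum was 14.8 CPM, of which Lcn2 made 11.1 CPM. This is 1 library, and a relation between these markers and Grn was not tested.

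Sorting and maturation (6 genes) held 1 gene that fell, 0 that rose and 5 that missed the threshold. The gene that fell was Igf2r, the large cation-independent mannose 6-phosphate receptor, which also clears insulin-like growth factor from the cell surface (ENSMUSG00000023830, chr17:12682406-12769664, minus strand). It had 326, 347, 349 and 339 CPM in structured 1 to 4, against 377, 403.5, 414 and 374 CPM in smooth 1 to 4. The groups did not overlap, with smooth 4 and smooth 1 nearest to the structured libraries. The means were 340.4 ± 10.5 CPM on structured and 392 ± 19.8 CPM on smooth PEEK (SD, n = 4 each), a log2 fold change of -0.20 ± 0.04 (edgeR adjusted p = 0.0271). This call was among the weakest of the 6: leaving out smooth 2, smooth 3, structured 1, structured 2 or structured 4 gave adjusted p-values of 0.0668 to 0.0870 (edgeR), and removing the trend with GC content and transcript length gave -0.12 (adjusted p = 0.194). Its gene shares 28354 positions with Airn on the opposite strand, which averaged 0.248 FPKM. Airn itself had a log2 fold change of -0.67 ± 0.28 (edgeR adjusted p = 0.224), and the strand setting of the counts is not given.

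The smaller, cation-dependent receptor M6pr was the most abundant gene of this group. M6pr had 407, 425, 427 and 441 CPM in structured 1 to 4, against 389.5, 419, 408 and 399.7 CPM in smooth 1 to 4. These ranges overlapped, and the log2 fold change was 0.07 ± 0.04 (edgeR adjusted p = 0.332). The ratio of Igf2r to M6pr CPM within a library, a pair chosen after the values were seen, was 0.801, 0.818, 0.818 and 0.769 in structured 1 to 4, against 0.968, 0.962, 1.02 and 0.936 in smooth 1 to 4. It was lower in every structured library than in any smooth one, and no test was made of it. Igf2r itself was called lower, so the ratio is not a separate result.

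The catalytic phosphotransferase gene Gnptab had 112, 111, 118 and 114 CPM in structured libraries, against 121, 119.9, 129 and 123 CPM in smooth libraries. The groups did not overlap, but the difference missed the threshold (log2 fold change -0.11 ± 0.04, edgeR adjusted p = 0.126). Its partner Gnptg was near 0 at 0.01 ± 0.08, and Sort1 was at -0.03 ± 0.05. Sumf1, which activates sulfatases in the endoplasmic reticulum before they reach the lysosome, was at -0.05 ± 0.06. None of the 3 passed (adjusted p = 0.954, 0.844 and 0.690, in that order, edgeR). A ratio within a library was also taken for Gnptab to Gnptg. It was 7.87, 7.39, 7.37 and 8.33 in structured 1 to 4, against 8.49, 7.96, 8.23 and 9.20 in smooth 1 to 4. These ranges overlapped, and no test was made of this ratio.

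The cholesterol exporters are a pair of proteins that hand cholesterol on inside the lysosome: soluble Npc2 binds it and membrane-bound Npc1 moves it out. Npc1 (ENSMUSG00000024413, chr18:12189692-12236400, minus strand) fell. It had 69.3, 66.3, 71.8 and 64.9 CPM in structured 1 to 4, against 82.3, 85.8, 88.6 and 86.2 CPM in smooth 1 to 4. The groups lay well apart, and the spread within each was small. The means were 68.1 ± 3.08 CPM on structured and 85.7 ± 2.58 CPM on smooth PEEK (SD, n = 4 each), and the level fell by 20.6% (log2 fold change -0.33 ± 0.04, edgeR adjusted p = 0.00690). Npc1 shares 967 positions with Rmc1 on the opposite strand, and the strand setting of the counts is not given. Rmc1 itself had a log2 fold change of 0.0040 ± 0.06 (edgeR adjusted p = 0.983).

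Npc2, the more abundant of the pair per length, missed the threshold. It had 167, 184, 165 and 179 CPM in structured 1 to 4, against 157, 164, 165 and 169 CPM in smooth 1 to 4. Its groups overlapped, and the log2 fold change was 0.09 ± 0.05 (edgeR adjusted p = 0.342). The Npc1 to Npc2 ratio within a library, again a pair chosen after the values were seen and not tested, was 0.416, 0.360, 0.436 and 0.362 in structured 1 to 4, against 0.526, 0.525, 0.536 and 0.510 in smooth 1 to 4. Every structured library had the lower ratio. Npc1 itself was called lower, so this ratio is not a separate result either.

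Of the 6 hydrolases that act on glycans and glycoproteins, 2 fell and 0 rose. Man2b1, the acid alpha-mannosidase of glycoprotein breakdown (ENSMUSG00000005142, chr8:85083270-85098282, plus strand), had 62.6, 54.9, 60.0 and 56.7 CPM in structured 1 to 4, against 72.7, 68.6, 70.5 and 69.7 CPM in smooth 1 to 4. All structured libraries lay below all smooth ones. The log2 fold change was -0.27 ± 0.05 (edgeR adjusted p = 0.0194), and the mean level fell by 16.8%. Without smooth 3, structured 2 or structured 4 its adjusted p was 0.0569, 0.0578 and 0.0767, in that order (edgeR).

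Gaa, the acid alpha-glucosidase that degrades glycogen (ENSMUSG00000025579, chr11:119267887-119285454, plus strand), had the highest mean FPKM of the glycan hydrolases over both groups, just above Neu1, which was higher than Gaa in all 4 structured libraries. It had 101.5, 102, 112 and 103.5 CPM in structured 1 to 4, against 126, 118, 126 and 128 CPM in smooth 1 to 4. Structured 3 came nearest to the smooth libraries and still lay below them. The means were 105 ± 4.82 CPM on structured and 124 ± 4.56 CPM on smooth PEEK (SD, n = 4 each), a log2 fold change of -0.25 ± 0.04 (edgeR adjusted p = 0.0157). Without structured 2 or structured 4 the adjusted p was 0.0561 and 0.0614, in that order (edgeR). Gaa has the highest GC content of the 39 genes (59.5%), and removing the GC and length trend left -0.18 (adjusted p = 0.0720).

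The other 4 glycan hydrolases missed the threshold, each with overlapping groups. The sialidase Neu1 was at -0.08 ± 0.04 on the log2 scale, the fucosidase Fuca1 at -0.02 ± 0.04 and the beta-mannosidase Manba at -0.02 ± 0.06. Aga, which splits the bond between glycan and asparagine, was at 0.09 ± 0.06. Their adjusted p-values ran from 0.337 (Neu1) to 0.935 (Manba) in edgeR's test.

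Among the 9 lipid hydrolases and activators, 1 fell, 0 rose and 8 missed the threshold. Psap encodes prosaposin, which is cut into the saposins that present sphingolipids to their hydrolases and which also carries progranulin to the lysosome (ENSMUSG00000004207, chr10:60277627-60302597, plus strand). It had 529, 546, 584 and 525 CPM in structured 1 to 4, against 598, 644, 675 and 658.5 CPM in smooth 1 to 4. The groups did not overlap, though structured 3 and smooth 1 lay close together. The means were 546 ± 26.9 CPM on structured and 644 ± 33.1 CPM on smooth PEEK (SD, n = 4 each), a log2 fold change of -0.24 ± 0.05 (edgeR adjusted p = 0.0229). The adjusted p was 0.0563 to 0.0788 (edgeR) when smooth 2, smooth 3, smooth 4, structured 1, structured 2 or structured 4 was left out.

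Lipa, the acid lipase that splits cholesteryl esters and triglycerides, had 468, 444, 482 and 490.5 CPM in structured 1 to 4, against 495.5, 517, 539 and 565.5 CPM in smooth 1 to 4. Its groups did not overlap, with structured 4 just under smooth 1. The log2 fold change of -0.17 ± 0.05 missed the threshold (edgeR adjusted p = 0.0731), and it passed without smooth 1 (adjusted p = 0.0422). Galc, which degrades galactosylceramide, was at -0.15 ± 0.06, and Gla, which removes terminal galactose from glycolipids, at -0.10 ± 0.07.

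The activator Gm2a and the phospholipase Pla2g15 were at -0.08 ± 0.10 and -0.04 ± 0.07. The value of Gm2a was unsteady, from -0.16 to -0.02 with 1 library left out and -0.31 (edgeR adjusted p = 0.0838) without structured 3, structured 4 and smooth 1. The acid sphingomyelinase Smpd1 was at 0.09 ± 0.08, the sulfatide-degrading Arsa at 0.06 ± 0.08 and the acid ceramidase Asah1 at 0.05 ± 0.06. For these 7 genes from Galc to Asah1 the groups overlapped, and none passed (edgeR adjusted p from 0.223 to 0.828).

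**Figure D2:**
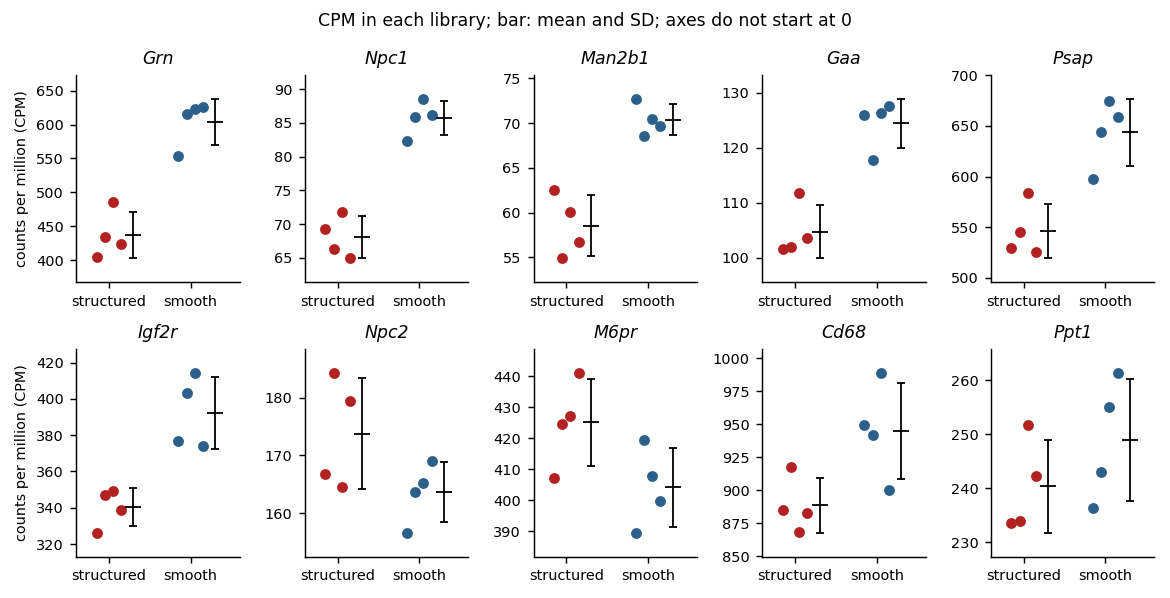
CPM in each library (points) with the mean and SD of 4 libraries (bars), structured left of smooth, for the 6 genes that fell and for Npc2, M6pr, Cd68 and Ppt1. The y axes do not start at 0. The groups are apart in Grn, Npc1, Man2b1, Gaa, Psap and Igf2r and overlap in the other 4.

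None of the 10 membrane proteins passed the threshold in either direction, and 8 of the 10 log2 fold changes were negative, with a median of -0.07. Cd68, a heavily glycosylated protein of macrophage lysosomes and endosomes, was the most abundant gene of the 39 per length. It had 885, 918, 869 and 883 CPM in structured 1 to 4, against 949, 941, 989 and 900.0 CPM in smooth 1 to 4. Structured 2 lay above smooth 4, so the groups overlapped, and the log2 fold change was -0.09 ± 0.04 (edgeR adjusted p = 0.198). Lamp1, a main glycoprotein of the lysosomal membrane, had 889, 883, 912 and 877 CPM in structured 1 to 4, against 942, 955, 984 and 940.5 CPM in smooth 1 to 4. Its groups did not overlap, but the difference was small (log2 fold change -0.10 ± 0.03) and missed the threshold (edgeR adjusted p = 0.0858).

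Gpnmb, a transmembrane glycoprotein that macrophages make when their lysosomes are under load, had 579, 715.5, 609.8 and 559 CPM in structured 1 to 4, against 707, 759, 791 and 698 CPM in smooth 1 to 4. Structured 2 stood above the other structured libraries and inside the smooth range. With it the log2 fold change was -0.26 ± 0.07 (edgeR adjusted p = 0.0671), and without it -0.34 (adjusted p = 0.0287). The cystine exporter Ctns was at -0.13 ± 0.08, and Cln3, which is mutated in juvenile Batten disease, at -0.09 ± 0.04. The sialomucin Cd164 was at -0.05 ± 0.04, the glucocerebrosidase carrier Scarb2 at -0.01 ± 0.05 and the tetraspanin Cd63 at -0.01 ± 0.05.

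Lamp2, the partner of Lamp1 in the membrane, was at 0.03 ± 0.05. Laptm4a, a small membrane protein of endosomes and lysosomes, had the highest log2 fold change of the 39 genes at 0.10 ± 0.04 (edgeR adjusted p = 0.159). It had 145, 147, 137 and 143 CPM in structured 1 to 4, against 129.5, 133, 138.5 and 132 CPM in smooth 1 to 4, and structured 3 lay below smooth 3.

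The 5 remaining hydrolases act on proteins, lipid anchors, phosphate esters and DNA, and 0 of them passed the threshold. Ppt1, which takes fatty acyl groups off proteins and is the most abundant of the 5 per length, had 234, 234, 252 and 242 CPM in structured 1 to 4, against 236, 243, 255 and 261 CPM in smooth 1 to 4. The groups overlapped over most of their range (log2 fold change -0.05 ± 0.04, edgeR adjusted p = 0.604). Its relative Ppt2 was at -0.12 ± 0.05 (adjusted p = 0.226), and Tpp1, which removes tripeptides from protein ends, at -0.03 ± 0.04. The acid phosphatase Acp2 was at 0.06 ± 0.06 and Dnase2a, which degrades the DNA of engulfed cells, at 0.04 ± 0.05.

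Per length, the levels spanned a wide range. The authors' FPKM (a count scaled to gene length and library depth) put Cd68 first at 663 ± 11.7 on structured and 703 ± 29.3 on smooth PEEK (SD, n = 4 each). Lamp1 followed at 312 ± 6.47 FPKM on structured and 334 ± 6.42 on smooth PEEK, then Psap at 187 ± 9.36 and 219 ± 8.63, and Grn at 118 ± 9.41 and 163 ± 7.11. Psap and Grn, both of which fell, were thus the third and the fourth of the 39, while Npc1 at 5.64 ± 0.278 on structured and 7.08 ± 0.136 on smooth PEEK ranked 31. The lowest were Ctns, Arsa and Galc, with Galc at 1.77 ± 0.127 FPKM on structured and 1.96 ± 0.0892 on smooth PEEK. The other genes that fell were Igf2r, Gaa and Man2b1, at 36.9, 22.4 and 7.52 FPKM over all libraries, in that order.

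**Figure D3:**
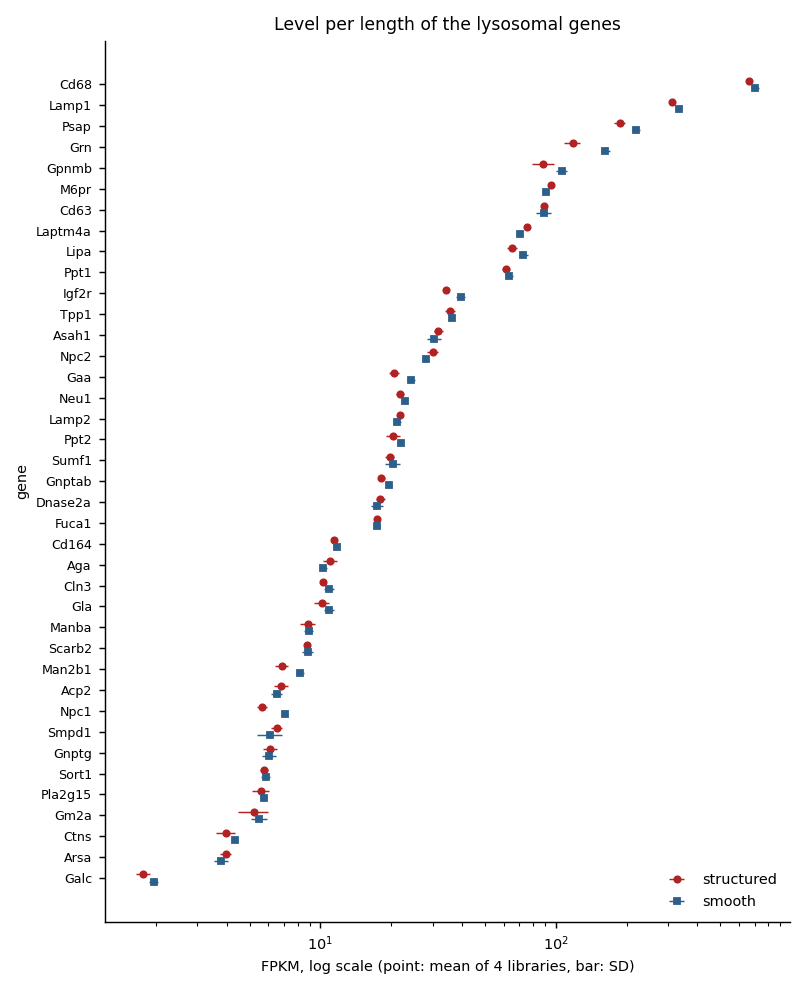
Mean FPKM of each of the 39 genes (log axis) with its SD over 4 libraries, structured as circles and smooth as squares, in order of the mean over both groups. Levels run from Cd68 (683 on average) to Galc (1.86), and the symbols part visibly for Grn, Psap and Npc1.

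Library by library, the 6 genes that fell had a median log2 ratio to the smooth mean of -0.29, -0.32, -0.20 and -0.30 in structured 1 to 4, against -0.06, 0.00, 0.05 and 0.02 in smooth 1 to 4. The genes were chosen by this difference, so the values only show how evenly the libraries carry it, with structured 3 the least shifted. Over all 39 genes the medians were -0.09, -0.04, -0.03 and -0.09 in structured 1 to 4, against -0.03, 0.00, 0.04 and -0.01 in smooth 1 to 4. Structured 3 and smooth 1 then had about the same median, so the groups were not clearly apart. The summed CPM of the 39 genes was 7147, 7424, 7431 and 7207 in structured 1 to 4, against 7709, 8022, 8202 and 7934 in smooth 1 to 4. Every structured sum was below every smooth sum, and the sums are weighted towards Cd68, Lamp1, Psap, Grn and Gpnmb, which have the most counts.

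**Figure D4:**
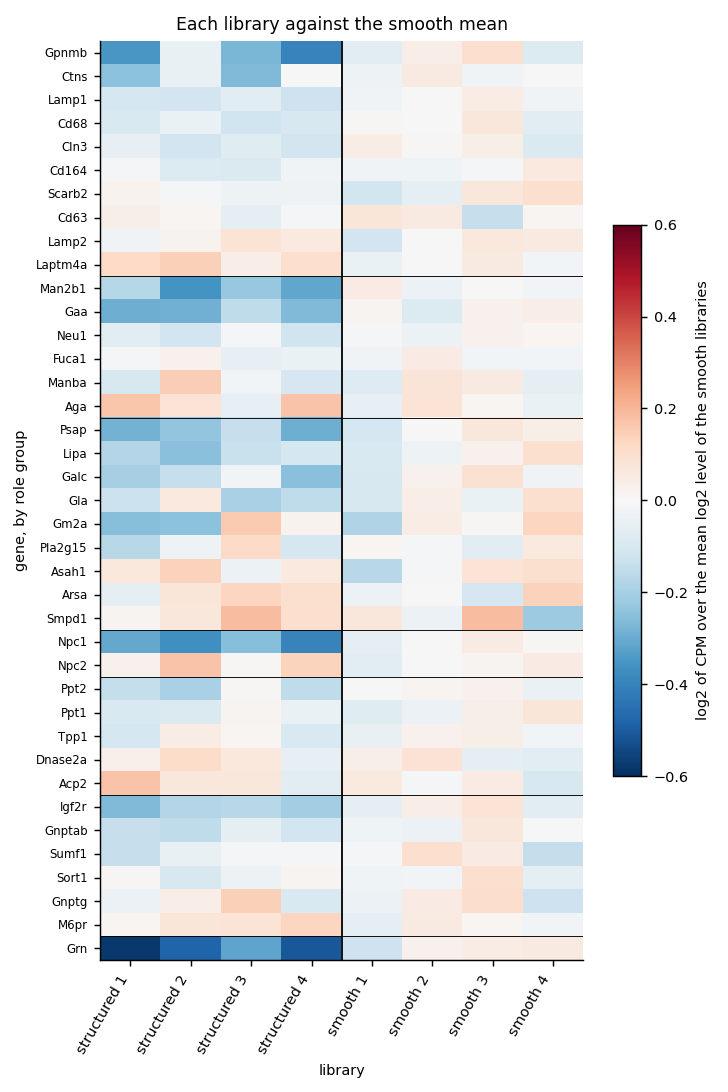
Log2 ratio of each library's CPM to the mean log2 level of the smooth libraries, for the 39 genes by role group, with the structured libraries on the left and the smooth libraries on the right. Blue is lower and red higher. The Grn row is darkest, at -0.58, -0.48, -0.31 and -0.51 in structured 1 to 4, and the Npc1, Gaa, Man2b1, Psap and Igf2r rows are blue in all 4 structured libraries.

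The hold of the calls differed between the 6 genes. Under 20 other settings (other filters, scalings, tests or units, added covariates, or libraries left out), Grn and Npc1 passed in 20, Gaa in 16, Man2b1 in 15, Psap in 10 and Igf2r in 10, and all 6 stayed negative in every one. Grn ran from -0.57 to -0.43 on the log2 scale and Npc1 from -0.36 to -0.30. Hepatocyte markers varied between libraries of both groups, and with their level as a covariate 4 members passed (against 1.29% of all genes as lower), while Psap was at -0.20 (adjusted p = 0.0664) and Igf2r at -0.20 (adjusted p = 0.0680). Without the 3 libraries richest in those markers 4 members passed as well (against 0.740% of all genes as lower), with Man2b1 at -0.24 (adjusted p = 0.116) and Igf2r at -0.24 (adjusted p = 0.0875). Lipa and Gpnmb passed in 4 of the 20 each and Lamp1 in 1, all as lower. The count of members that fell was 9 by DESeq2, where 8.20% of all genes tested were called lower. It was 6 by limma on log2(FPKM + 0.5), against 1.89% of all genes, and 4 after correction for GC content and length, against 1.23%. Those 4 were Grn, Npc1, Man2b1 and Lipa, while Psap was at -0.22 (adjusted p = 0.0559).

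**Figure D5:**
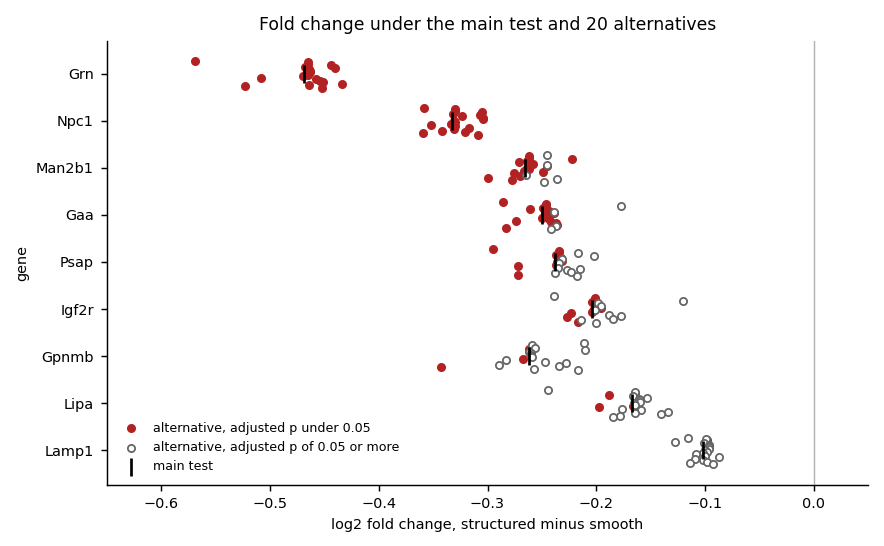
Log2 fold change (structured minus smooth) of 9 genes in edgeR's test (black line) and under 20 alternative settings (points, filled where the adjusted p was under 0.05). Grn and Npc1 are filled throughout, Igf2r moves to -0.12 after correction for GC content and length, and Lamp1 lies between -0.13 and -0.09.

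Other genes of the pathway were taken from a list of 58 lysosome genes outside the 39 (cathepsins, glycosaminoglycan hydrolases, proton pump subunits, transporters and adaptors). The list was written with earlier results of these data known, so it is not an independent look at the pathway. Of the 58 genes, 9 (15.5%) fell and 1 rose, with 44 (75.9%) negative and a median of -0.07. Over all genes tested, 2.75% fell, 1.01% rose and 48.8% had a negative log2 fold change. Of the 79 tested genes outside the 39 that the table annotates to the KEGG pathway Lysosome, 11 (13.9%) fell and 1 rose, and 49 genes are in both lists. The genes that fell included Hexa (-0.29), which acts on the ganglioside that Gm2a presents. The pump subunits Atp6v0a1 (-0.34) and Atp6v0d1 (-0.19), the chloride-proton exchanger Clcn7 (-0.20) and the metal transporter Slc11a1 (-0.25) also fell. So did Gusb (-0.18), the protease Ctsd (-0.16), Laptm5 (-0.20), Litaf (-0.31) and Entpd4 (-0.34), all as log2 fold changes with edgeR adjusted p-values of 0.00980 to 0.04997. The gene that rose was Ap1s1, a subunit of the adaptor that packs cargo at the Golgi, at 0.15 ± 0.04 (edgeR adjusted p = 0.0407). These counts, too, changed when single libraries were left out: 2 of the 58 fell without structured 4, where 0.407% of all genes tested fell. The count was 3 without smooth 3 and 3 without structured 2, where 0.742% and 0.602% of all genes fell, in that order. Calls over all genes thus dropped as well.

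The transcription factors known to bind the CLEAR element were looked at whatever their result. Tfe3 fell by 0.17 on the log2 scale with an adjusted p just under the threshold (0.04997, edgeR). Tfeb was at 0.06 ± 0.16 and Mitf at 0.03 ± 0.08 (adjusted p = 0.903 and 0.906, in that order, edgeR). Of 10 genes of this axis, 2 (20%) fell and 0 rose, against 2.75% and 1.01% of all genes tested. This list, too, was written with earlier results of these data known. The other gene that fell was Fnip2, a partner of folliculin in nutrient signalling at the lysosome (-0.42 ± 0.04, edgeR adjusted p = 0.00145).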

How the data were processed

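RNA from 8 libraries of RAW264.7 cells, 4 on structured and 4 on smooth PEEK, was poly(A)-selected and sequenced with dUTP strand marking, per the labels' protocols. Per the submitters' processing notes, cutadapt 1.9 and HISAT2 2.2.1 were used. Not given in the sources used here are the build, the annotation, the counting tool with its strand setting, and any use of molecular identifiers. The authors deposited estimated counts, as whole numbers, and FPKM values, which are scaled to gene length and depth, per the file headers. Low deposited counts pile up at multiples of 4 (32.1% of values from 1 to 40, against 25.3% from 400 to 4000), so a count unit may be less than a fragment. Counting error may then be larger than the totals of 64479829 to 73098735 units alone would give. Coordinates match GENCODE M21 (GRCm38) for 35 of the 39 genes.

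The counts were tested with edgeR 4.0.16 under R 4.3.3 (filterByExpr with a minimum count of 10, TMM, quasi-likelihood test, two-sided, structured minus smooth, Benjamini-Hochberg adjustment at 0.05 over 16006 genes). CPM is the count over the TMM-scaled library size. The procedure was tested on simulated data. Alternatives were other filters (minimum count 40, none), DESeq2 size factors, DESeq2 1.42.0, counts divided by 4, limma 3.58.1 on log2 of FPKM plus 0.5 or 0.1, a replicate block, removal of the GC and length trend, the hepatocyte marker level as a covariate, each library left out in turn and, added after seeing the data, structured 3, structured 4 and smooth 1 left out together. All 39 genes are accounted for. Of the other lysosome genes past the threshold, some are not reported here by name, though the counts include them. Values per library are given by rule for the genes past the threshold and the most abundant gene per length of each role group, and those of Lipa, Lamp1, Gpnmb, Gnptab and Laptm4a were added after their values were seen. The genes and lists were chosen with earlier results of these data known. Python 3.11.15 with matplotlib 3.10.9 drew the figures.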

Additional observations from a re-analysis of the deposited data

Results flagged for a closer look

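In 3 of 78 groups of 4 libraries (39 genes on 2 surfaces), 1 library stood apart from the other 3 by Dixon's criterion, and chance alone gives about 1 in 20. Grn had 554 CPM in smooth 1, against 615 to 626 CPM in the other smooth libraries, so this library lay nearest to the structured ones and still above them. Smooth 1 also had the highest hepatocyte marker sum of the smooth libraries (305 CPM). The log2 fold change of Grn was -0.51 without smooth 1 (edgeR adjusted p = 0.00194) and -0.44 with the hepatocyte marker level as a covariate (edgeR adjusted p = 0.0177). Fuca1 had 63.4 CPM in smooth 2, against 60.4 to 60.6 CPM in the others. Cd164 had 58.3 CPM in smooth 4, against 55.1 to 55.6 CPM in the others.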

How the results depend on the processing

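Over 39 genes and 20 alternatives (780 values), 713 kept their direction and side of the threshold, 29 lost a call, 9 gained one and 29 changed sign. The changes of sign fell on 8 genes, none past the threshold, and the largest in size was 0.05002 (log2 fold change). With the 3 libraries richest in hepatocyte markers left out they were Lamp2 -0.0391, Cd63 0.0453, Manba 0.00204, Fuca1 0.000967, Arsa -0.00693 and Gnptg -0.0105. With the GC and length trend removed they were Cd63 0.05002, Scarb2 0.00122, Sort1 0.0332 and Gnptg -0.0183, and with the hepatocyte covariate Scarb2 0.0374 and Manba 0.0275. Limma on log2(FPKM + 0.5), with and without a filter, and on log2(FPKM + 0.1) gave Cd63 0.00139, 0.00139 and 0.00141. Leaving out 1 library at a time, the ranges were -0.00332 to 0.0547 for Lamp2, -0.0497 to 0.0189 for Cd63, -0.0491 to 0.0179 for Scarb2, -0.0728 to 0.0149 for Manba, -0.0330 to 0.00148 for Fuca1, -0.0449 to 0.00564 for Sort1 and -0.0298 to 0.0516 for Gnptg.

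The members called lower numbered 6 in edgeR's test, where 440 of 16006 genes were called lower. They numbered 2 by unfiltered limma, where 55 of 26848 genes were. With the libraries left out in turn they numbered 2 to 7, while 67 to 427 of all genes were called lower. The members called higher were 0 throughout. Of the 58 other lysosome genes, 9 were called lower. That count was 14 by DESeq2, 5 by limma with either pseudocount, 1 by unfiltered limma, 3 with no filter on low counts, 4 with the hepatocyte covariate, 2 with the 3 libraries left out and 2 to 8 with 1 left out. Over all genes, lower calls numbered 880 by DESeq2 and 230 and 228 by limma with pseudocounts of 0.5 and 0.1, in that order. They numbered 142 with no filter, 206 with the hepatocyte covariate and 124 with the 3 libraries left out. The 1 higher call of the 58 genes was 0 with the 3 libraries left out, the GC and length trend removed, the hepatocyte covariate, each limma setting, no filter on low counts and the replicate block, and 0 to 1 with 1 library left out. Unfiltered tests span 26848 genes, and fits with fewer libraries have fewer residual degrees of freedom; other causes were not tested. Libraries with the same number did not deviate together (correlations of -0.159 to 0.0761 over 4 pairs, 0 over 0.1). This check cannot show whether libraries were handled in pairs, and library 1 of each group carries no replicate number in the labels. With a replicate block, 8 members were called lower, and so were 374 of 16006 genes over all. Over all genes, calls were lower in 73.2% of cases, 61.4% by DESeq2, 64.2% with the hepatocyte covariate and 55.5% after correction for GC content and length. The size of a count unit is unclear, which limits what the depth says of counting error.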
